A study of Mus musculus with 4 samples.

Results

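The MHC class II presentation genes described here are 8 mouse genes, H2-Aa, H2-Ab1, H2-Eb1, Cd74, Ciita, H2-DMa, H2-DMb1 and H2-DMb2, out of 16403 gene IDs listed in at least 1 library. They were taken by symbol through their gene IDs, by a rule that uses no measured value although earlier results of these data were known, and all 8 were listed in all 4 libraries. To test how IL-4 and loss of Trim24 (also called TIF1a) alter gene expression in macrophages, RNA was sequenced from peritoneal macrophages of C57BL/6 mice. The cells were elicited with 4% thioglycolate, collected after 4 days, allowed to adhere for 4 h and starved in 0.5% serum. WT mice and mice lacking Trim24 in myeloid cells (TIF1a-KO) each gave a nontreat library and a library of cells given mouse IL-4 at 20 ng/mL for 6 h. In the knockout, floxed Trim24 alleles were deleted by Cre from the lysozyme M (LysM) locus, which acts in myeloid cells and not in macrophages alone, and the controls were WT littermates. The mice were 6 to 8 weeks old per the methods of the study, and the number of mice in a library is not given in the sources used here.

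Each of the 4 groups held 1 library, with 11026033 to 11250099 expected reads, so no difference here has a replicate check. The tests below compare libraries, not conditions, and their intervals cover counting error only. Trim24 itself was at 2.55 and 1.48 FPKM (reads scaled by transcript length and library total) in the WT nontreat and IL-4 libraries and at 0.06 and 0.14 FPKM in the knockout libraries, in the direction of the labels. The macrophage markers were all detected (Cd68 at 3005 to 3465 FPKM), and Lyz2, the gene that carries LysM-Cre, was at 11289 and 10811 FPKM in WT and at 5193 and 4761 FPKM in the knockout. In bulk RNA, fewer cells of a type and less RNA per cell cannot be told apart.

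MHC class II molecules are pairs of an alpha and a beta chain that carry peptides from endosomes to the surface of antigen-presenting cells, where CD4+ T cells read them. The invariant chain, Cd74, fills the peptide groove while the pair travels to the endosome, and the H2-DM pair then exchanges the remaining invariant chain fragment for peptide. Ciita, the class II transactivator, is a coactivator without DNA binding of its own that is recruited by factors bound to a shared promoter module, whose elements are called the X and Y boxes. In mice of this strain the H2-E alpha chain gene is not functional, so that H2-A is the class II molecule at the surface. Macrophages carry class II at low levels until they are activated, for which interferon-gamma is the best known signal, whereas IL-4 is known to raise class II in B cells and in macrophages.

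Because class II genes are known for this shared promoter module, RefSeq promoter windows (GRCm38.p6) were searched for it. Each window ran from 250 bases before to 50 after a transcription start. A window was found for 5 of the 8 genes (6 windows, of which H2-DMa has 2), and none for H2-Ab1, Cd74 and Ciita. The X box core was searched as GCAAC, which reads GTTGC on the opposite strand, and the Y box core as ATTGG, which reads CCAAT there. The stretches below run 5′ to 3′ on the strand of the gene and end upstream of its start; capitals mark the X box core or the letters at its place, and then the Y box core.
H2-Aa (chr17:34287855-34287912, minus strand): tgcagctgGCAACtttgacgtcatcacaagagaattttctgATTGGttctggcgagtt
H2-Eb1 (chr17:34305768-34305824, plus strand): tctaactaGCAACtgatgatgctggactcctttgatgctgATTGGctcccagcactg
H2-DMb2 (chr17:34145118-34145175, plus strand): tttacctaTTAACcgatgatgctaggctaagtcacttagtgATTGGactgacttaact

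GCAAC followed within 30 bases by ATTGG on the same strand, searched on both strands, was present in the windows of H2-Aa and H2-Eb1, and in 1.39% of all 32851 windows. Alone, the Y box core was in 37.4% of all windows and the X box core in 35.2%. H2-DMb1 and H2-DMb2 had ATTGG at 61 and 90 bases before the start, without GCAAC. At the same distance of 28 bases before ATTGG, H2-DMb1 had GTAAC and H2-DMb2 had TTAAC, as H2-Aa had GCAAC. The windows of H2-DMb1 and H2-DMb2 were identical at 84.6% of 246 aligned bases, so their matches are not independent of each other. A looser search chosen after these windows had been read, AAC followed after 22 to 32 bases by GATTGG on the strand of the gene, matched H2-Aa, H2-Eb1, H2-DMb1 and H2-DMb2 and 0.983% of all windows. Both combinations were also present in the windows of H2-Oa, H2-Ob and H2-Eb2, class II genes outside the members. In the windows of H2-DMa neither combination was present, which says only that these letters are not in these windows. The H2-Aa and H2-Eb1 stretches lie outside annotated transcripts on their strand in GENCODE vM21, and the H2-DMb2 stretch lies in an intron of a longer H2-DMb2 transcript. These are matches of letters and not measured binding.

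The 8 genes spanned a wide range of levels. On the FPKM scale, which is per transcript length and allows genes to be set side by side, the order of the means over the 4 libraries was Cd74 (223.6 FPKM), H2-Ab1 (42.9), H2-Aa (41.7), H2-DMb1 (26.5), H2-Eb1 (22.7), H2-DMa (7.82), H2-DMb2 (3.31) and Ciita (0.518). Neighbours in this order whose ranges over the 4 libraries overlapped were H2-Ab1 and H2-Aa, and H2-DMb1 and H2-Eb1. Cd74 thus made up 59.2% to 62.1% of the summed FPKM of the 8 genes, the classical chains H2-Aa, H2-Ab1 and H2-Eb1 made up 27.1% to 31.7%, and the 3 H2-DM genes made up 8.51% to 12.2%.

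**Figure D1:**
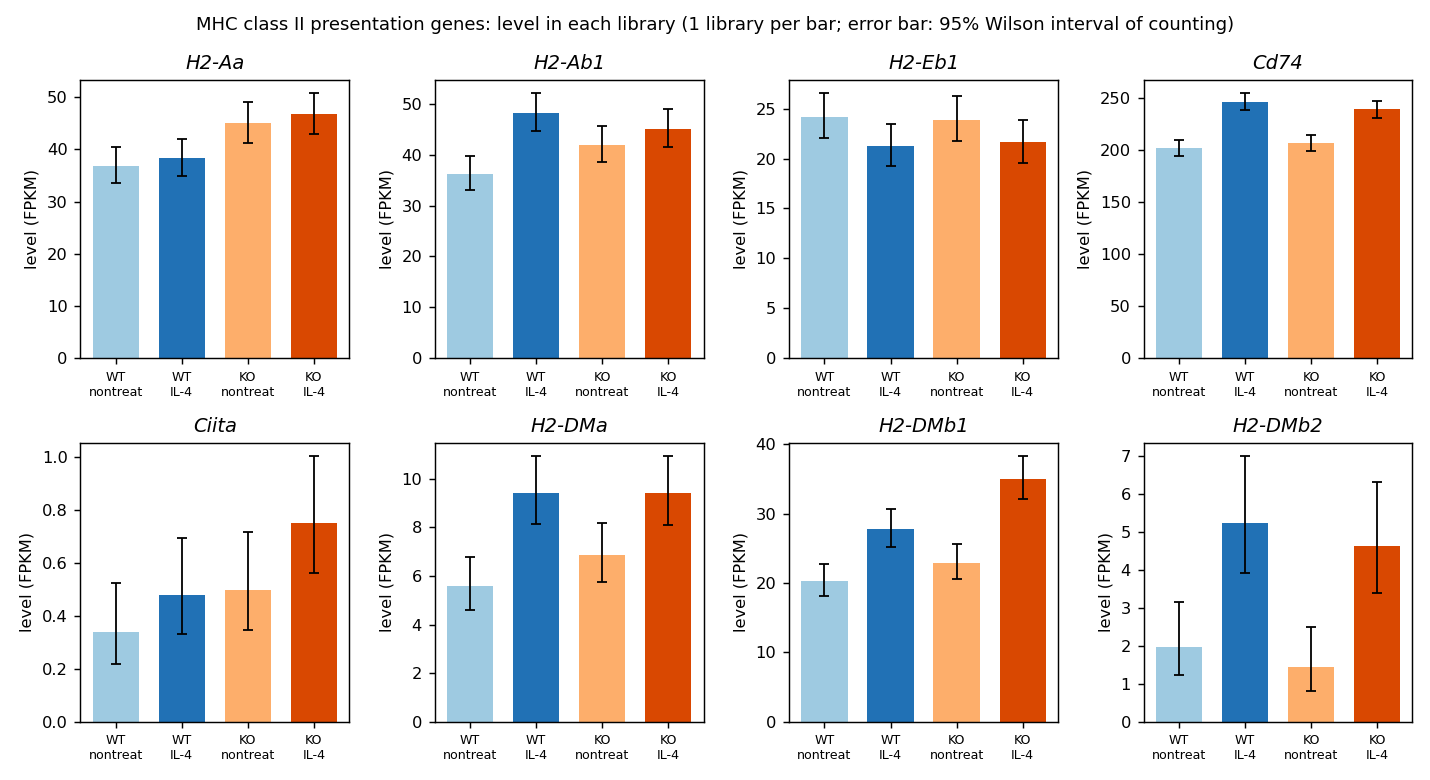
Level of each of the 8 genes in FPKM (y axis, from 0, a separate scale for each gene) in the 4 libraries, 1 library per bar, with the 95% Wilson interval of counting as error bar. H2-DMa, H2-DMb1, H2-DMb2, Cd74 and H2-Ab1 stand higher in both IL-4 libraries than in both nontreat libraries, whereas H2-Aa stands higher in both knockout libraries.

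IL-4-treated WT macrophages were then compared with nontreat WT macrophages. H2-DMa and H2-DMb2 were called higher with IL-4, and no member was called lower. Calls required a ratio of FPKM + 0.1 beyond 1.5-fold together with significance at 0.05 (two-sided Fisher's exact test on expected reads, Benjamini-Hochberg over all genes with a read). This made 2 of 8 members higher in WT, where 4.91% of the 15593 genes tested were called higher and 7.88% lower. The 8 members had a median log2 ratio of 0.40, against -0.03 over all genes tested. With the adjusted p alone 5 of 8 were higher (H2-Ab1, Cd74 and the 3 H2-DM genes) and 0 lower, where 15.1% of all genes tested were higher and 17.7% lower.

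In TIF1a-KO macrophages IL-4 also gave 2 of 8 members called higher and 0 lower, here H2-DMb1 and H2-DMb2, where 5.29% of the 15738 genes tested were called higher and 4.03% lower. The 8 members had a median log2 ratio of 0.33, against 0 over all genes tested. With the adjusted p alone 4 of 8 were higher (Cd74 and the 3 H2-DM genes) and 0 lower, where 13.2% of all genes tested were higher and 11.8% lower.

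Among the classical chains, H2-Aa, which encodes the alpha chain of H2-A, was at 36.8 FPKM in WT nontreat, 38.3 in WT IL-4, 45.0 in knockout nontreat and 46.7 in knockout IL-4. The log2 ratio with IL-4 was 0.06 in WT (95% interval -0.13 to 0.25) and 0.05 in the knockout (-0.12 to 0.23), neither called. The 4 values thus lay apart by genotype rather than by treatment. H2-Ab1, the beta chain paired with it, was at 36.2, 48.2, 41.9 and 45.1 FPKM in the same order. It was higher with IL-4 in WT by a log2 ratio of 0.41 ± 0.09 (SE of counting; exact test, adjusted p = 1.5e-05), a fold of 1.33 that is below the fold threshold. In the knockout its log2 ratio was 0.11 ± 0.09 (exact test, adjusted p = 0.47). With the trend of the ratios with transcript length removed, its log2 ratio was 0.27 in WT and 0.07 in the knockout. The level in WT nontreat was the lowest of the 4, and the ratio of H2-Aa to H2-Ab1 FPKM was 1.01, 0.795, 1.07 and 1.04.

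H2-Eb1, the beta chain of H2-E, was at 24.2, 21.3, 23.9 and 21.6 FPKM and was the only member lower in both IL-4 libraries than in both nontreat libraries. The log2 ratios of -0.19 ± 0.10 in WT and -0.14 ± 0.10 in the knockout did not pass the exact test (adjusted p = 0.15 and 0.36). The FPKM of H2-Eb1 relative to H2-Ab1 was accordingly 0.668 and 0.570 in the nontreat libraries of WT and knockout. In the IL-4 libraries it was 0.441 and 0.480. With the trend of the ratios with transcript length removed, the log2 ratio of H2-Eb1 was -0.27 in WT (exact binomial test, adjusted p = 0.026). In the knockout it was then -0.18 (exact binomial test, adjusted p = 0.22).

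Cd74, the invariant chain, also serves as a surface receptor for the cytokine MIF. It was at 201.8 FPKM in WT nontreat, 246.5 in WT IL-4, 206.9 in knockout nontreat and 239.0 in knockout IL-4. Both IL-4 libraries were above both nontreat libraries, by a log2 ratio of 0.29 ± 0.04 in WT (exact test, adjusted p = 4.5e-14) and 0.21 ± 0.04 in the knockout (adjusted p = 2.1e-07). These folds of 1.22 and 1.15, measured on 2793 to 3477 expected reads, passed the exact test and stayed below the fold threshold. Removal of the trend of the ratios with transcript length gave Cd74 log2 ratios of 0.16 in WT and 0.18 in the knockout. Both still passed (exact binomial test, adjusted p = 0.00012 and 1.3e-05).

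**Figure D2:**
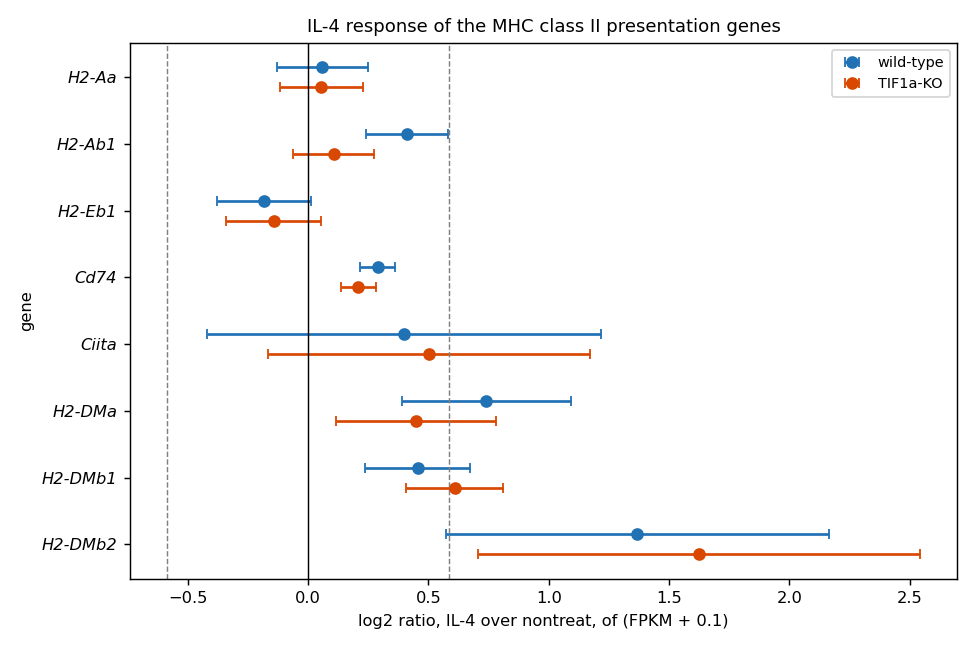
Log2 ratio of FPKM + 0.1, IL-4 over nontreat (x axis), for each gene (y axis) in WT (blue) and TIF1a-KO (orange); bars are 95% intervals of counting and dashed lines mark a fold of 1.5. The H2-DM genes and Cd74 lie to the right of 0 in both genotypes, H2-DMb2 farthest at 1.37 and 1.63, while the interval of H2-Aa spans 0 in both.

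The H2-DM genes encode the alpha chain (H2-DMa) and 2 forms of the beta chain (H2-DMb1 and H2-DMb2) of the peptide exchange factor. H2-DMa was at 5.60, 9.42, 6.87 and 9.40 FPKM from 102, 175, 125 and 171 reads, so that the IL-4 libraries were alike and both above the nontreat libraries. The log2 ratio was 0.74 ± 0.18 in WT (exact test, adjusted p = 0.00013; called) and 0.45 ± 0.17 in the knockout (adjusted p = 0.032; a fold of 1.36). After removal of the trend of the ratios with transcript length, the log2 ratio of H2-DMa was 0.65 in WT and 0.41 in the knockout. The knockout value then no longer passed (exact binomial test, adjusted p = 0.058). The annotated span of H2-DMa overlaps that of Brd2, which was at 62.8 to 67.6 FPKM and was called in no comparison. Whether the counting used strand is not given in the sources used here.

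H2-DMb1 was at 20.3 FPKM in WT nontreat, 27.9 in WT IL-4, 22.9 in knockout nontreat and 35.0 in knockout IL-4. The log2 ratio with IL-4 was 0.45 ± 0.11 in WT (exact test, adjusted p = 0.00022; a fold of 1.37, not called) and 0.61 ± 0.10 in the knockout (adjusted p = 3.1e-08; a fold of 1.53, called). With the trend of the ratios with transcript length removed, the knockout value was 0.58 and no longer passed the fold threshold. H2-DMb2 was at 1.96, 5.22, 1.43 and 4.62 FPKM, and both IL-4 libraries were again above both nontreat libraries. Its log2 ratio was 1.37 ± 0.41 in WT (exact test, adjusted p = 0.0023) and 1.63 ± 0.47 in the knockout (adjusted p = 0.00083), from 16.52, 44.82, 12.05 and 38.85 expected reads.

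The coding sequences of H2-DMb1 and H2-DMb2 (786 bases each in GENCODE vM21) were identical at 95.9% of aligned bases, and 27.2% of the 50-base words of H2-DMb1 occurred in H2-DMb2. Reads shared by both genes were therefore divided by the authors' counting model, and neither gene had a whole number of reads in any library. Their sum was whole in each library, at 301 reads in WT nontreat, 443 in WT IL-4, 333 in knockout nontreat and 529 in knockout IL-4. The summed FPKM ratio with IL-4 was 1.48 in WT (log2 0.57, 95% interval 0.36 to 0.78) and 1.62 in the knockout (log2 0.70, 0.50 to 0.90). H2-DMb2 took 5.65% of the summed reads in WT nontreat (95% Wilson interval 3.56% to 8.86%), 10.2% in WT IL-4 (7.68% to 13.3%), 3.60% in knockout nontreat (2.07% to 6.19%) and 7.37% in knockout IL-4 (5.44% to 9.92%). The share was higher with IL-4 in both genotypes, with intervals that overlapped, and the split of H2-DMb1 from H2-DMb2 is uncertain.

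**Figure D3:**
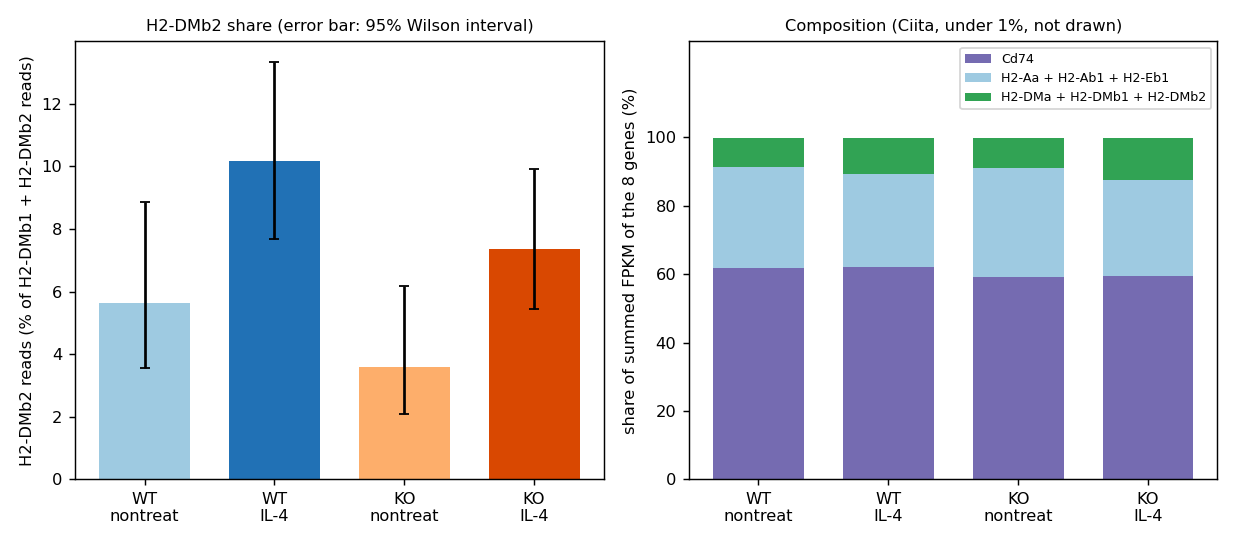
Left, H2-DMb2 reads as a percentage of H2-DMb1 and H2-DMb2 reads (y axis) in each library (x axis), with 95% Wilson intervals. Right, percentage of the summed FPKM of the 8 genes taken by Cd74, the classical chains and the H2-DM genes; the H2-DM share is 8.51% and 8.93% in the nontreat libraries and 10.7% and 12.2% in the IL-4 libraries.

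Ciita was at 0.34 FPKM in WT nontreat, 0.48 in WT IL-4, 0.50 in knockout nontreat and 0.75 in knockout IL-4, from 20, 28, 29 and 45 reads. The IL-4 value was above the nontreat value within each genotype, with log2 ratios of 0.40 ± 0.42 in WT and 0.50 ± 0.34 in the knockout (exact test, adjusted p = 0.52 and 0.19). The 95% intervals reached from -0.42 to 1.22 and from -0.17 to 1.17, so that at this depth neither no change nor a doubling could be told from the measured values. Over all 8 genes the summed reads, scaled by library total to the CPM scale, were 413.6 CPM in WT nontreat (95% Wilson interval 401.7 to 425.7), 499.6 in WT IL-4 (486.7 to 512.8), 440.9 in knockout nontreat (428.7 to 453.5) and 506.1 in knockout IL-4 (493.0 to 519.5).

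To use both genotypes as repeats of the IL-4 effect, treatment and genotype were entered as additive terms of a model of all 4 libraries (edgeR quasi-likelihood test, 1 residual degree of freedom), which assumes that both act independently. In this fit 4 of 8 members were higher in the IL-4 libraries and none was lower. These were H2-DMb2 (log2 1.53, adjusted p = 0.0031), H2-DMa (0.61, adjusted p = 0.0083), H2-DMb1 (0.55, adjusted p = 0.0019) and Cd74 (0.26, adjusted p = 0.040). Of the 11791 genes tested, 12% were higher and 13.3% lower. H2-Ab1 was at 0.27 (adjusted p = 0.091), Ciita at 0.57 (adjusted p = 0.19), H2-Aa at 0.07 and H2-Eb1 at -0.15. DESeq2 in place of edgeR called 0 of 8 (3 at an unadjusted p under 0.05), with H2-DMb1 closest at an adjusted p of 0.097. Without a filter on low counts edgeR called 3 of 8, with Cd74 lost (adjusted p = 0.11). With limma on log2 values 5 of 8 were called, with H2-Ab1 gained (adjusted p = 0.033). For these alternatives the share of all genes called was not computed.

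To examine whether loss of Trim24 altered the class II genes, knockout libraries were set against WT libraries of the same treatment. Without IL-4 no member was called, where 1.58% of the 15623 genes tested were called in either direction. With IL-4 no member was called either, where 3.81% of the 15573 genes tested were. H2-Aa had the same ratio in both comparisons, a log2 ratio of 0.29 ± 0.09 in nontreat cells (exact test, adjusted p = 0.033) and in IL-4-stimulated cells (exact test, adjusted p = 0.012), a fold of 1.22. H2-DMb1 was higher in the knockout with IL-4 by 0.33 ± 0.10 (exact test, adjusted p = 0.0059), and its ratio without IL-4 was 0.18 ± 0.12 (adjusted p = 0.51). By the adjusted p alone these made 1 of 8 members without IL-4, where 6.63% of all genes tested passed, and 2 of 8 with IL-4, where 19.9% passed. With the trend with transcript length removed, the ratios of H2-Aa were no longer equal, at 0.33 without and 0.44 with IL-4. That of H2-DMb1 with IL-4 was then 0.47.

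The other members showed smaller or less precise genotype ratios. H2-Ab1 had a log2 ratio of 0.21 ± 0.09 without IL-4 (exact test, adjusted p = 0.19). Ciita had 0.45 ± 0.41 without and 0.55 ± 0.34 with IL-4, the latter at an adjusted p of 0.16 in the exact test. Cd74 and H2-Eb1, at 0.04 and -0.02 without and -0.04 and 0.02 with IL-4, had 95% intervals of -0.11 to 0.02 and -0.18 to 0.22 with IL-4. With the length trend removed, Cd74 with IL-4 and H2-Eb1 without IL-4 turned in sign. The additive edgeR fit called 0 of 8 members by genotype, where 1.66% of the genes tested were called. In that fit 2 of 8 had an unadjusted p under 0.05, and DESeq2 called 0. When the transcript length trend was entered as an offset, H2-Aa (0.38, adjusted p = 0.0012) and H2-DMb1 (0.35, adjusted p = 0.010) were called higher in the knockout. The share of all genes called was not computed for this setting, so these calls have no background to be read against.

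**Figure D4:**
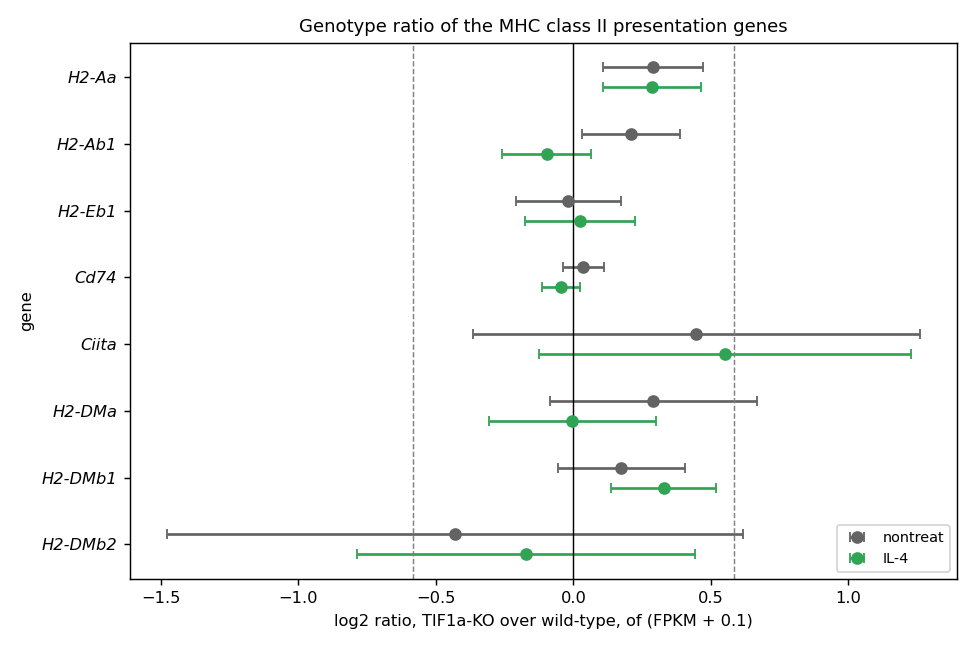
Log2 ratio of FPKM + 0.1, TIF1a-KO over WT (x axis), for each gene (y axis) without IL-4 (grey) and with IL-4 (green); bars are 95% intervals of counting and dashed lines mark a fold of 1.5. Of the 8 genes, H2-Aa is at 0.29 in both comparisons, and no point lies beyond the dashed lines.

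Whether the genotypes differed in their response to IL-4 was tested directly (knockout minus WT, on log2 reads scaled by library total, against counting error). None of the 8 members passed at an adjusted p under 0.05, and 1 had an unadjusted p under 0.05, where 10.8% of the 13408 genes tested passed. H2-Ab1 had a difference of -0.31 (95% interval -0.55 to -0.07, adjusted p = 0.094 over all genes, counting error only). The intervals of H2-Aa (-0.26 to 0.25) and Cd74 (-0.18 to 0.02) were narrow, whereas those of Ciita (-0.88 to 1.24) and H2-DMb2 (-0.90 to 1.52) spanned large differences in either direction. H2-DMa, called in WT only, had a difference of -0.30 (-0.78 to 0.19), and H2-DMb1, called in the knockout only, had 0.15 (-0.15 to 0.45).

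Of the 8 genes, 6 lie in the class II region of chromosome 17 (chr17:34092379-34344645, GRCm38, 252 kb from H2-Oa to H2-Ea), whereas Cd74 lies on chromosome 18 and Ciita on chromosome 16. Of its protein-coding genes 11 averaged 1 FPKM or more, the 6 members and 5 others. The H2-DM genes, at one end, had IL-4 log2 ratios of 0.45 to 1.63, while H2-Ab1, H2-Aa and H2-Eb1, at the other end, had ratios of -0.19 to 0.41. These ranges are not separated beyond counting error. H2-DMa in the knockout was at 0.45 ± 0.17 and H2-Ab1 in WT at 0.41 ± 0.09. Between them lie genes of the class I pathway. Psmb9, a subunit of the immunoproteasome, was at 16.2, 27.9, 22.3 and 25.0 FPKM and was called higher with IL-4 in WT (log2 0.78) and not in the knockout (0.16). Tap1, Psmb8 and Tap2 lie there too, whereas Brd2 is centred on the H2-Oa side of the H2-DM genes and is not a class I pathway gene. Tap1, Psmb8, Tap2 and Brd2 had IL-4 log2 ratios of -0.02 to 0.26, with no call.

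**Figure D5:**
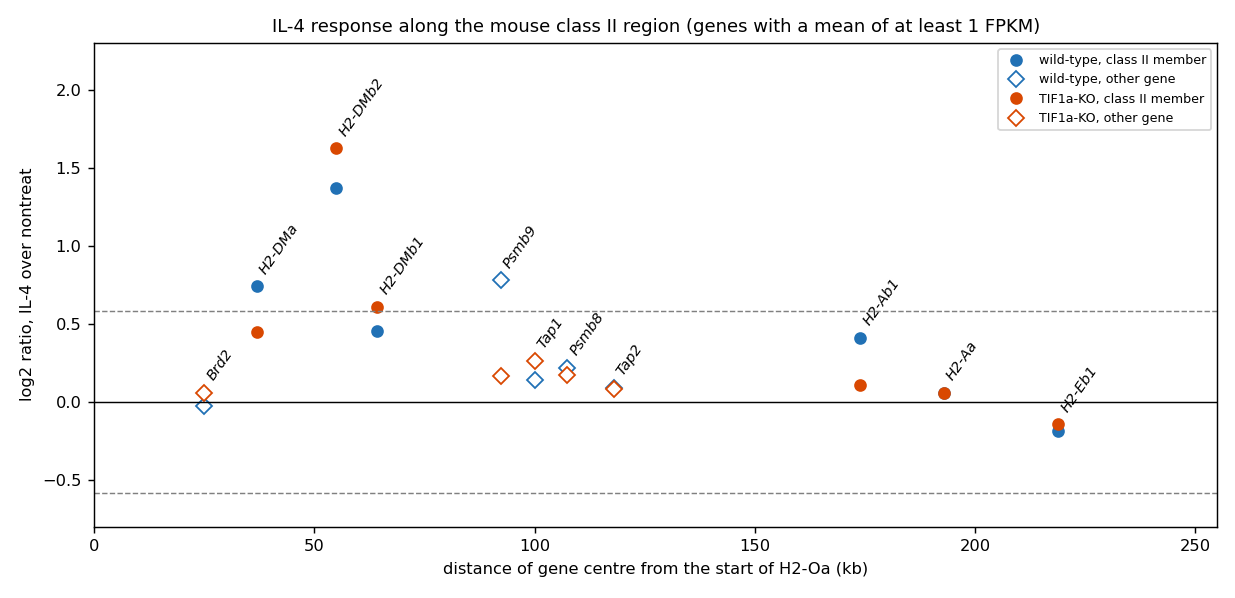
Log2 ratio of FPKM + 0.1, IL-4 over nontreat (y axis), against the distance of each gene's centre from the start of H2-Oa in kb (x axis), for the 11 protein-coding genes of the class II region that averaged 1 FPKM or more; filled circles are members, open diamonds other genes, blue WT and orange TIF1a-KO, and dashed lines mark a fold of 1.5. The 3 H2-DM genes lie between 37.0 and 64.3 kb and above 0.4, and H2-Ab1, H2-Aa and H2-Eb1 lie between 173.9 and 218.9 kb and at or below 0.41. Intervals of counting, not drawn, overlap for H2-DMa in TIF1a-KO and H2-Ab1 in WT.

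The other class II genes were near the limit of detection. H2-Oa and H2-Ob, which form the inhibitor of H2-DM that is typical of B cells, and H2-Eb2 were each at or below 0.29 FPKM in every library, and H2-Ea was listed at 0. None of these was called in any comparison. B cells and dendritic cells carry class II at high levels, and their markers were therefore read beside the members. The 9 B cell markers, of which all had a read in some library, summed to 7.47 FPKM in WT nontreat, 6.36 in WT IL-4, 5.75 in knockout nontreat and 4.85 in knockout IL-4, with Cd79a at 1.17 to 2.97 FPKM. Pax5 was at 0 in WT nontreat and Cr2 in knockout IL-4, and the sum was lower in the IL-4 library of each genotype than in its nontreat library. The 7 dendritic cell markers summed to 2.81, 2.75, 2.80 and 2.91 FPKM, with Siglech at 0 in all but knockout nontreat and Clec9a at 0 in both IL-4 libraries, and the part of such cells in the class II levels was not tested.

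The genes that act on the class II genes and proteins were taken from 4 lists drawn up from general knowledge. Their counts stand beside the shares over all genes given above for IL-4, 4.91% called higher and 7.88% lower in WT and 5.29% and 4.03% in the knockout. Of 10 factors of the class II promoter module, 0 were higher and 2 lower with IL-4 in WT and none was called in the knockout. These were Crebbp (6.68, 3.64, 6.77 and 5.49 FPKM) and Ep300 (20.0, 12.8, 21.4 and 18.4), acetyltransferases that act with Ciita, at log2 ratios of -0.86 and -0.65 in WT. Both calls were lost with the length trend removed (-0.46 and -0.18). Rfx5, a subunit of the factor that binds the X box, was at 1.37 to 1.63 FPKM with no call.

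Of 15 genes upstream of Ciita, 4 were higher and 1 lower with IL-4 in each genotype. Jak2, a kinase of the interferon-gamma receptor, rose from 10.1 to 26.4 FPKM in WT and from 10.3 to 29.0 in the knockout. Irf1, which activates an interferon-responsive Ciita promoter, rose from 22.1 to 55.8 and from 26.6 to 49.0 FPKM. Irf4, an IL-4-inducible factor, rose from 0.57 to 15.4 and from 0.84 to 22.8 FPKM, and Socs1, an inhibitor of Jak kinases, from 0.83 to 26.1 and from 0.98 to 22.9. Prdm1, a repressor of Ciita, fell from 2.49 to 0.88 FPKM in WT and from 2.28 to 0.84 in the knockout. These 15 genes had a median log2 ratio of 0.32 in WT and 0.21 in the knockout, against -0.03 and 0 over all genes tested.

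Of 9 endosomal proteases and related genes that prepare antigen and degrade the invariant chain, 3 were higher and 1 lower with IL-4 in WT, and 2 were higher and 0 lower in the knockout. Ctsl, which cleaves the invariant chain, was at 654.2, 1227, 821.3 and 1270 FPKM, and Lgmn, an asparaginyl endopeptidase, at 722.5, 1209, 815.4 and 1225. Ifi30, which reduces disulfide bonds of antigens, was at 416.7, 704.9, 443.7 and 611.2 FPKM and was called in WT. Sppl2a, the protease that removes the last fragment of Cd74 from the membrane, was the gene called lower in WT (22.2, 14.4, 24.6 and 18.8 FPKM), a call lost with the length trend removed (log2 -0.36), as was that of Lgmn in the knockout (0.55). Ctss, the cathepsin of the last cleavage of the invariant chain in many antigen-presenting cells, was at 5839 to 6357 FPKM with no call. Of 9 genes of class II turnover and Cd74 partners, 1 was higher in each genotype, Cd44, the signalling partner of Cd74, at 56.0, 113.5, 55.8 and 111.1 FPKM, and 0 were lower. No gene of these 4 lists was called by genotype, where 1.58% of all genes tested were called without IL-4 and 3.81% with IL-4. This does not mean equal levels, because some ratios passed the exact test below the fold of 1.5. With IL-4, Crebbp (log2 0.58), Irf4 (0.56) and Ep300 (0.52) were such genes higher in the knockout, and Irf1 (-0.19) and Ifi30 (-0.21) were lower. Once the ratios of these named genes were corrected for transcript length, only that of Irf4 passed (0.39, exact binomial test, adjusted p = 6.1e-08). Further genes of the lists passed this corrected test. Without IL-4, Ctsl (0.33, exact binomial test, adjusted p = 8.5e-166) and Lgmn (0.20, adjusted p = 6.8e-31) were higher in the knockout. Cd44 was lower in the knockout with IL-4 (-0.17, adjusted p = 1.9e-08).

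The genes whose profile over the 4 libraries was most like the median profile of the members at or above 1 FPKM (7 of the 8) were named by distance between centred log2 values. Of 7451 genes searched, the nearest were Anxa6, Dkc1, Mettl26, Spryd4 and Stx12, at distances of 0.040 to 0.043 against a median of 0.40. Anxa6, for instance, was at 46.6, 61.9, 50.5 and 60.6 FPKM. The members themselves lay 0.11 (Cd74) to 1.24 (H2-DMb2) from it.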

How the data were processed

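The authors extracted total RNA, submitted it to Illumina HiSeq sequencing, and per the labels used Bowtie, RSEM and the GRCm38 (mm10) build (versions not given in the sources used here). The deposited expected counts are reads assigned to a gene by RSEM, which need not be whole, and the deposited FPKM values are these counts per transcript length and library total, with 2 decimals. Genes not listed were set to 0. Of 16403 gene IDs, 16365 matched a symbol in RefSeq (GRCm38.p6). The 4 libraries held 11026033 to 11250099 expected reads, and a gene without reads may have up to 3 reads (0.267 to 0.272 CPM).

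Samples were grouped by label. Expected counts were rounded for all tests. Ratios used FPKM + 0.1, which understates changes of low genes. Pairs of libraries were tested by Fisher's exact test (SciPy 1.17.1), with the thresholds of 0.05 (adjusted p) and 1.5 (fold). The difference of responses used reads + 0.5 in genes with at least 10 summed reads. The additive model used edgeR 4.0.16 (TMM, filterByExpr, R 4.3.3); DESeq2 1.42.0 and limma 3.58.1 were alternatives. Others were pseudocounts of 0.01 and 1, a mean of at least 1 FPKM, TMM and DESeq2 scaling, CPM ratios, a fold of 2, assumed biological coefficients of variation of 0.2 and 0.4, and removal of a length trend (lowess, fraction 0.3). Scripts were tested on simulated data.

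The members and lists were chosen with earlier results of these data known. Named genes were the 8 members, Trim24 and the 5 nearest genes by profile (mean of at least 5 FPKM). Genes of the lists could be named where called or among the 3 highest of their list, and not all of the latter were. The genes of the class II region, Rfx5, Brd2 and the markers were named after their values were seen. Of the other marker lists, in the order WT nontreat, WT IL-4, knockout nontreat and knockout IL-4, macrophage markers summed to 14840, 14737, 8894 and 8287 FPKM, and without Lyz2 to 3551, 3926, 3701 and 3526 FPKM. T or NK cell markers summed to 1.78, 1.14, 2.49 and 1.50 FPKM, and mesothelial markers to 4.71, 4.19, 2.42 and 3.14. Large peritoneal macrophage markers summed to 3.56, 5.08, 4.47 and 4.35 FPKM, and monocyte or small peritoneal macrophage markers to 0.92, 16.7, 1.36 and 23.2, nearly all of it Irf4. Neutrophil markers summed to 11.3, 7.58, 8.33 and 10.6 FPKM, and eosinophil or mast cell markers to 3.17, 1.87, 4.74 and 3.92.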

Additional observations from a re-analysis of the deposited data

Results flagged for a closer look

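The genotypes were compared in their IL-4 response (knockout minus WT, log2, counting error only). No member passed, where 10.8% of the 13408 genes tested passed. Of the other genes named here, 11 passed. These genes were named by call, by level or after their values were seen, so their number is not comparable with that share. The response was higher in the knockout for Crebbp (difference 0.57), Ep300 (0.43) and Sppl2a (0.24). It was lower in the knockout for Psmb9 (-0.62), Irf1 (-0.46), Ifi30 (-0.30), Ctsl (-0.28), Cd68 (-0.27) and Lgmn (-0.16). Lyz2 (-0.064) and Ctss (-0.046) passed with differences of small size at very high read numbers. With the length trend removed, the differences of Crebbp (0.26), Ep300 (0.08), Sppl2a (0.02) and Psmb9 (-0.50) no longer passed, and those of Ctss (0.05) and Lyz2 (0.05) turned in sign.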

How the results depend on the processing

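No paired analysis was possible because each group holds 1 library and the labels give no replicate numbers to use as a block; the additive fit instead takes genotype as a term beside treatment. With a biological coefficient of variation assumed at 0.2 or at 0.4 in place of replicates, 0 of 8 members were called with IL-4 in either genotype, so the calls rest on counting error alone. A fold above 2 left 1 member called with IL-4 in WT and 1 in the knockout, and removal of the length trend left 1 in the knockout. In the additive fit, DESeq2 called 0 of 8 by IL-4, and the length offset called 2 of 8 higher by genotype. The share of all genes called was not computed for either setting.

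Ratios near 0 turned in sign; the length trend was the setting for most of them. With it removed, the IL-4 ratio of H2-Aa was -0.087 in WT, and -0.023 in the additive fit with the length offset. The genotype ratios with IL-4 became 0.052 for H2-Ab1, 0.097 for Cd74, 0.090 for H2-DMa and 0.0089 for H2-DMb2, and the genotype effect of Cd74 in the additive fit with the length offset became 0.085. The differences of responses became 0.11 for H2-Aa, 0.022 for Cd74 and -0.020 for Ciita. The genotype ratio of H2-Eb1 without IL-4 was 0.0043 with DESeq2 size factors and 0.0078 with the trend removed, and its additive genotype effect was -0.032 with upper-quartile scaling and -0.0014 with no filter. The cause was not tested. Ciita and H2-DMb2, with 12 to 45 reads, are limited by depth.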
